A study of Mus musculus with 8 samples.

Results

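The skeletal muscle triad is the junction where a transverse tubule, an infolding of the surface membrane, meets the calcium store of the fibre, and 10 of its genes were followed here: Cacna1s, Cacnb1, Cacng1, Cacna2d1, Stac3, Ryr1, Ryr3, Jph1, Jph2 and Trdn. They were taken by symbol from a table of 23336 gene rows, and all 10 were found and passed the filter on low counts. Total RNA was sequenced from the skeletal muscle of newborn mice that carried the ∆DMR1-U2 deletion at the imprinted Igf2 locus (4 libraries) and of wild-type mice (4 libraries). All mice were of the C57BL/6 strain, labelled female and taken at postnatal day 2, and the sources used here do not say which muscles were dissected, how many animals gave each library, or from which parent the deletion came. The libraries of each group are named 1A, 1B, 2 and 3. Because nothing states that they came from separate animals, p-values measure the spread between these libraries.

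Excitation-contraction coupling turns an action potential into contraction. The voltage-gated calcium channel of the transverse tubule, the dihydropyridine receptor, senses the depolarisation and, in skeletal muscle, acts mechanically on the ryanodine receptor of the sarcoplasmic reticulum, which releases stored calcium onto the myofilaments. Junctophilins hold the membranes together at the triad, and triadin ties the release channel to the calcium-binding protein calsequestrin inside the store.

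The libraries held 16781493 to 20060129 counts in ∆DMR1-U2 and 16084413 to 26913636 counts in wild-type. The members had 737 to 43377 counts in any library, so counting error was small beside the spread between libraries. Igf2as, the antisense gene of the deleted locus, had 5.55 to 6.18 CPM (counts scaled to library size) in the ∆DMR1-U2 libraries and 54.4 to 72.2 CPM in the wild-type libraries, without overlap. Library 1B of ∆DMR1-U2 stood apart on the first principal component, at -42.9, with the other 7 libraries between -17.2 and 26.6. Library 1A of ∆DMR1-U2 had 2.50 CPM of Xist, which is transcribed from an inactive X, and the other 7 libraries had 1269.9 to 1895 CPM, which goes against its label as female. Several results below are also given without these libraries.

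None of the 10 triad genes was called higher or lower in ∆DMR1-U2 muscle over all genes tested (edgeR quasi-likelihood test, Benjamini-Hochberg adjusted p of 0.120 to 0.857), where 1.13% of the 15241 genes tested were called, 0.512% higher and 0.617% lower. The point estimates nevertheless lay mostly on the low side: 9 of 10 members had a negative log2 fold change of ∆DMR1-U2 over wild-type, against 50.2% of all genes, with a median of -0.24 beside a median of -0.0010 over all genes. The members furthest below wild-type were Cacnb1, Jph2, Stac3 and Cacna1s, by 18.8% to 25.1%, and these 4 had an unadjusted p under 0.05, as did 21.3% of all genes and 10.9% of all genes on the low side. Jph1 alone had a positive value, 0.12. In bulk muscle, fewer fibres and less RNA of a gene per fibre cannot be told apart.

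The 10 genes share their libraries, and 1 library lay lower than the rest. Library 1B of ∆DMR1-U2 had the lowest level of 7 of the 10 members, and its median member stood 0.55 below the wild-type mean on the log2 scale, whereas ∆DMR1-U2 libraries 1A, 2 and 3 stood 0.19, 0.08 and 0.10 below it. The median log2 fold change was -0.14 without library 1B, and again -0.14 without both 1A and 1B. The DESeq2 Wald test called 1 member, Cacna1s, lower (adjusted p = 0.0469), where it called 6.15% of all genes, 3.32% lower. The authors' deposited table gives adjusted p values of 0.263 to 1 for the 10 genes.

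**Figure D1:**
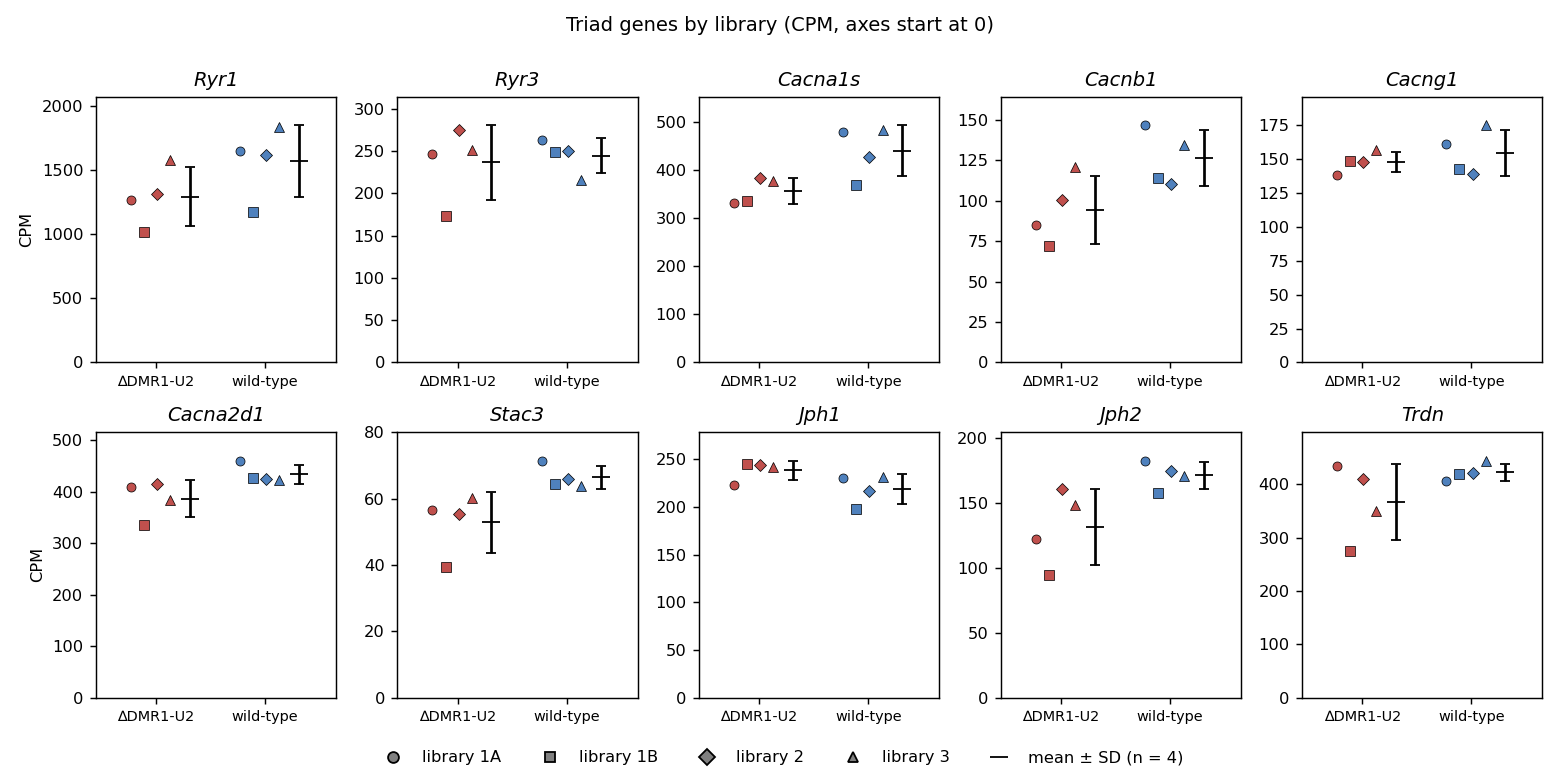
Level of each of the 10 triad genes in CPM (vertical axes, each starting at 0) in the 4 ∆DMR1-U2 libraries and the 4 wild-type libraries; marker shapes are libraries, and black bars are the mean ± SD. The groups are apart in Cacna2d1 and Stac3 and overlap in the other panels, and the square of ∆DMR1-U2 library 1B is the lowest point in 7 of the 10 panels.

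The subunits of the voltage sensor came first. Cacna1s encodes the pore-forming, voltage-sensing subunit (ENSMUSG00000026407, mm10 chromosome 1 from 136052750 to 136119822, plus strand). It had 332, 337, 384 and 378 CPM in ∆DMR1-U2 libraries 1A, 1B, 2 and 3, and 479.7, 369.5, 428 and 484 CPM in wild-type libraries 1A, 1B, 2 and 3. Both ∆DMR1-U2 libraries 1A and 1B lay below every wild-type library, while 2 and 3 lay above wild-type library 1B. The means were 358 ± 27.2 CPM in ∆DMR1-U2 and 440.3 ± 53.5 CPM in wild-type (SD, n = 4 each), a log2 fold change of -0.30 (SE 0.10, 95% interval -0.51 to -0.09; adjusted p = 0.120, edgeR). Without both ∆DMR1-U2 libraries 1A and 1B it was -0.21. The interval, like those below, comes from the fit of a single gene and is not adjusted for the number of genes. Of its exon bases, 1309 are shared with exons of the predicted gene Gm37759 on the opposite strand, and without the strand setting of the counting their reads cannot be told apart.

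Cacnb1, the intracellular beta subunit that brings the channel to the membrane (ENSMUSG00000020882, chromosome 11 from 98001508 to 98023034, minus strand), had the largest estimate of the 10. It had 84.7, 72.0, 100.2 and 121 CPM in ∆DMR1-U2 and 147, 114, 110.1 and 134 CPM in wild-type. Of the ∆DMR1-U2 libraries, 3 lay below all wild-type libraries and library 3 lay among them. The means were 94.5 ± 21.1 CPM in ∆DMR1-U2 and 126 ± 17.3 CPM in wild-type, a log2 fold change of -0.42 (SE 0.15, 95% interval -0.74 to -0.09; adjusted p = 0.151, edgeR). Without ∆DMR1-U2 library 1B it was -0.31, and without both 1A and 1B it was -0.19.

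Cacna2d1 encodes the extracellular alpha-2-delta subunit (ENSMUSG00000040118, chromosome 5 from 15934691 to 16374511, plus strand). It had 409, 336, 415.5 and 385 CPM in ∆DMR1-U2 and 460.4, 427, 424 and 423 CPM in wild-type. Every ∆DMR1-U2 library lay below every wild-type library, as it did in Stac3; the groups were apart in these 2 of 10 members and in 12.8% of all genes, 6.38% of all genes with ∆DMR1-U2 the lower. The log2 fold change of Cacna2d1 was small all the same, at -0.17 (SE 0.08, 95% interval -0.34 to 0.01; adjusted p = 0.247, edgeR), and ∆DMR1-U2 library 2, at 415.5 CPM, came close to wild-type library 3, at 423 CPM. Without ∆DMR1-U2 library 1B the log2 fold change of Cacna2d1 was -0.10, and without both 1A and 1B it was -0.12. Cacng1, the gamma subunit specific to skeletal muscle (ENSMUSG00000020722, chromosome 11 from 107703218 to 107716522, minus strand), had 139, 149, 148 and 157 CPM in ∆DMR1-U2 and 161, 142.5, 139 and 175 CPM in wild-type. The Cacng1 groups overlapped. Its log2 fold change was -0.06 with a 95% interval of -0.24 to 0.12 (adjusted p = 0.703, edgeR), and it was 0.0052 without wild-type library 3.

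Stac3 encodes the adaptor protein that the skeletal muscle channel needs for its traffic to the membrane and its coupling to the release channel (ENSMUSG00000040287, chromosome 10 from 127501686 to 127508823, plus strand). It had 56.6, 39.3, 55.4 and 60.1 CPM in ∆DMR1-U2 and 71.5, 64.4, 66.1 and 63.7 CPM in wild-type. No ∆DMR1-U2 library reached the lowest wild-type library, and ∆DMR1-U2 library 1B was far below the rest. The means were 52.9 ± 9.24 CPM in ∆DMR1-U2 and 66.4 ± 3.52 CPM in wild-type, a log2 fold change of -0.33 (SE 0.11, 95% interval -0.58 to -0.08; adjusted p = 0.147, edgeR). Without ∆DMR1-U2 library 1B it was -0.21.

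The release channels are encoded by Ryr1, the main isoform of skeletal muscle (ENSMUSG00000030592, chromosome 7 from 29003344 to 29125179, minus strand), and Ryr3, an isoform found beside it in immature muscle (ENSMUSG00000057378, chromosome 2 from 112631355 to 113217096, minus strand). Ryr1 had 1267, 1017, 1316 and 1581 CPM in ∆DMR1-U2 and 1649.6, 1178, 1620.1 and 1842 CPM in wild-type. Library 1B was the lowest library of each group, and 3 wild-type libraries lay above all ∆DMR1-U2 libraries. The log2 fold change of Ryr1 was -0.28 (SE 0.15, 95% interval -0.61 to 0.05; adjusted p = 0.309, edgeR), -0.18 without ∆DMR1-U2 library 1B and -0.12 without both 1A and 1B. Ryr3 had 247, 173, 275 and 251 CPM in ∆DMR1-U2 and 264, 249, 250.1 and 215 CPM in wild-type. Apart from the low ∆DMR1-U2 library 1B, its groups were intermixed. The log2 fold change of Ryr3 was -0.05 with a 95% interval of -0.33 to 0.23 (adjusted p = 0.857, edgeR), and it was 0.076 without ∆DMR1-U2 library 1B. Exons of Ryr1 overlap those of Gm26604 and Gm44408 on the opposite strand, and the larger overlap with either gene is 864 bases. Of the exon bases of Ryr3, 916 lie over exons of Aven on the opposite strand.

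The junctophilins did not go the same way in the point estimates. Jph1, the junctophilin of the skeletal muscle triad (ENSMUSG00000042686, chromosome 1 from 16964560 to 17097889, minus strand), had 223, 245, 244 and 242 CPM in ∆DMR1-U2 and 230.3, 198, 216 and 232 CPM in wild-type. Its ∆DMR1-U2 libraries 1B, 2 and 3 lay above all wild-type libraries and library 1A among them, with a log2 fold change of 0.12 and a 95% interval of -0.03 to 0.27 (adjusted p = 0.325, edgeR). Without wild-type library 1B, the lowest for Jph1, it was 0.080. Jph2, which skeletal muscle shares with heart and smooth muscle (ENSMUSG00000017817, chromosome 2 from 163336242 to 163397993, minus strand), had 122, 94.3, 160.3 and 148 CPM in ∆DMR1-U2 and 182, 158, 174 and 171 CPM in wild-type. Of the ∆DMR1-U2 libraries, library 2 alone reached into the wild-type range. The means of Jph2 were 131 ± 29.4 CPM in ∆DMR1-U2 and 171 ± 10.3 CPM in wild-type, a log2 fold change of -0.38 (SE 0.14, 95% interval -0.69 to -0.08; adjusted p = 0.153, edgeR). Without ∆DMR1-U2 library 1B it was -0.25, and without both 1A and 1B it was -0.15.

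Trdn encodes triadin (ENSMUSG00000019787, chromosome 10 from 33080554 to 33476709, plus strand). It had 434, 275, 409 and 349 CPM in ∆DMR1-U2 and 406, 419.7, 419.9 and 444 CPM in wild-type. The wild-type libraries lay close together, and ∆DMR1-U2 libraries 1B and 3 lay below all of them, with SDs of 70.8 CPM in ∆DMR1-U2 and 15.8 CPM in wild-type. The log2 fold change was -0.20 with a 95% interval of -0.47 to 0.06 (adjusted p = 0.353, edgeR), and -0.09 without ∆DMR1-U2 library 1B.

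**Figure D2:**
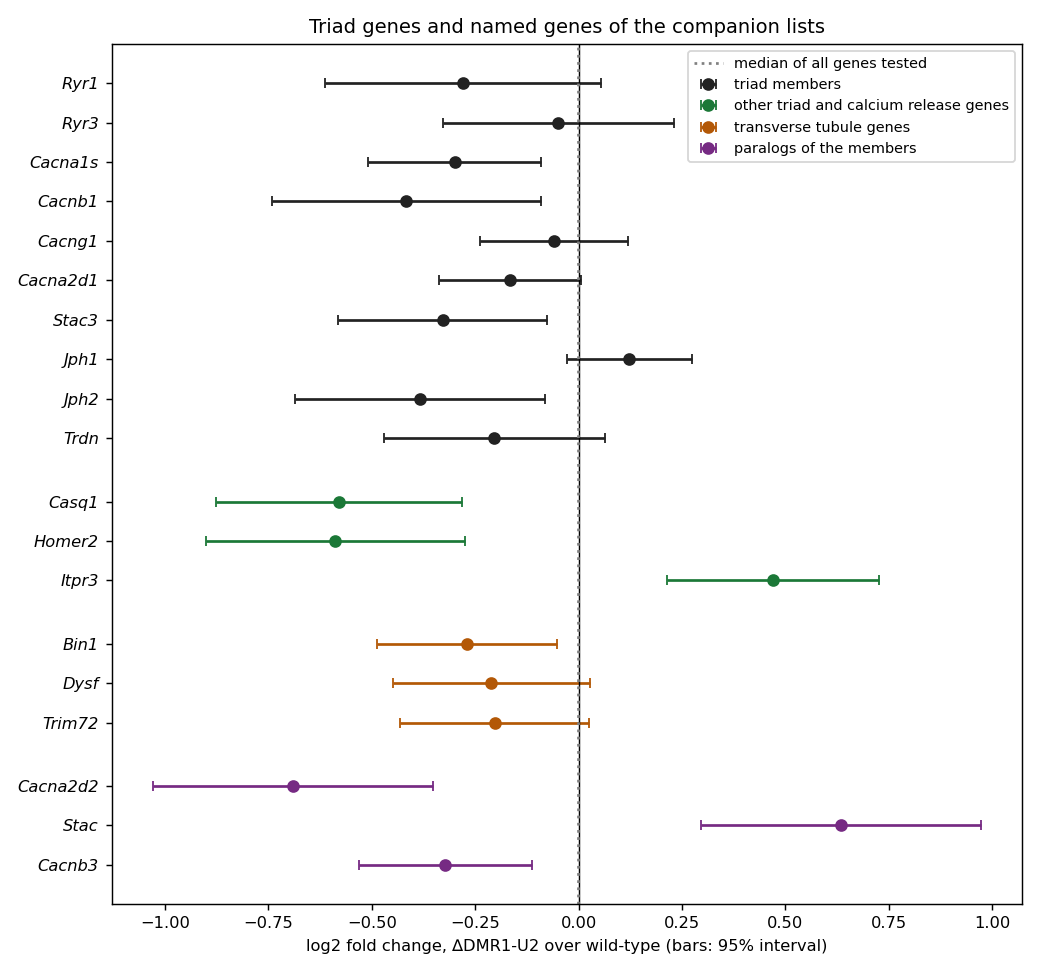
Log2 fold change of ∆DMR1-U2 over wild-type (horizontal axis) with its 95% interval for the 10 triad genes and for the named genes of 3 companion lists; the dotted line is the median of all genes tested. The intervals of Cacna1s, Cacnb1, Stac3 and Jph2 lie below 0, as do those of the companion genes Casq1, Homer2, Bin1, Cacna2d2 and Cacnb3. Those of the companion genes Itpr3 and Stac lie above 0, and no gene shown had an edgeR adjusted p under 0.05. DESeq2 called Cacna1s, Casq1, Homer2, Itpr3, Cacna2d2 and Stac of the genes shown.

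Compared per length, Cacng1 had the highest level of the 10 members and Ryr3 the lowest in both genotypes. Counts were divided by the union of annotated exons, and levels are CPM per kilobase. Cacng1 was at the top with 119 ± 5.88 in ∆DMR1-U2 and 124 ± 13.5 in wild-type. Ryr1 followed with 59.3 ± 10.6 in ∆DMR1-U2 and 72.0 ± 12.9 in wild-type, and Cacna1s with 54.6 ± 4.15 in ∆DMR1-U2 and 67.2 ± 8.16 in wild-type. With this length, the wild-type ranges of these 2 overlapped. Ryr1 and Cacna1s are the channel and sensor that face each other at the triad.

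Trdn, Jph1 and Jph2 came next, at 39.2, 47.7 and 30.8 CPM per kilobase in ∆DMR1-U2 and 45.2, 43.8 and 40.2 CPM per kilobase in wild-type, and in wild-type the libraries of each overlapped those of the next. Cacna2d1 had 31.1 in ∆DMR1-U2 and 34.9 in wild-type. The wild-type libraries of Cacna2d1 touched the range of Jph2 and lay above those of Cacnb1. Cacnb1 and Stac3 overlapped, at 20.9 and 20.8 in ∆DMR1-U2 and 27.9 and 26.1 in wild-type. Ryr3 was lowest, with 12.5 ± 2.33 in ∆DMR1-U2 and 12.9 ± 1.08 in wild-type. With the longest transcript as the length instead, Ryr1 was at 84.3 in ∆DMR1-U2 and 102.4 in wild-type. Cacna1s was then at 57.2 in ∆DMR1-U2 and 70.4 in wild-type, further below Ryr1. Trdn was at 81.3 in ∆DMR1-U2 and 93.6 in wild-type and passed Cacna1s. Cacna2d1 was at 52.0 in ∆DMR1-U2 and 58.3 in wild-type and passed both junctophilins. The middle of the order and the distance between Ryr1 and Cacna1s thus rest on the length used.

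**Figure D3:**
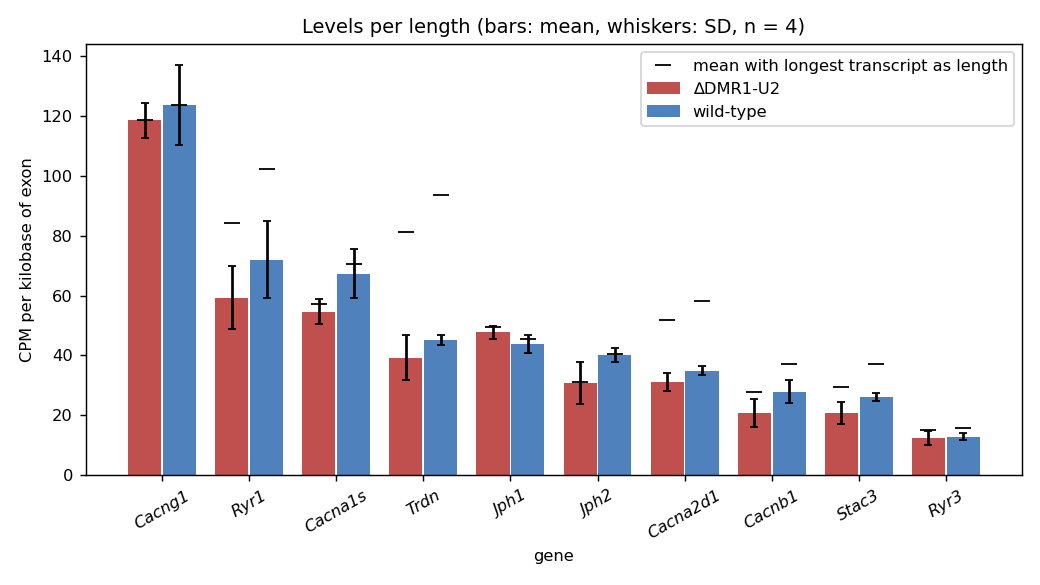
Level per kilobase of annotated exon (vertical axis, CPM per kilobase, starting at 0) of the 10 triad genes, as mean and SD over 4 ∆DMR1-U2 and 4 wild-type libraries; black dashes give the mean when the longest transcript is the length. Cacng1 is highest and Ryr3 lowest in both groups and under both lengths.

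Ratios of 2 members within a library do not depend on the scaling of libraries, and 8 pairs were compared: Ryr3 over Ryr1, Jph2 over Jph1, Cacna1s over Ryr1, Trdn over Ryr1, and Cacnb1, Cacng1, Cacna2d1 and Stac3 over Cacna1s. The ratio of Jph2 to Jph1 counts was 0.546, 0.385, 0.658 and 0.613 in ∆DMR1-U2 and 0.792, 0.795, 0.805 and 0.737 in wild-type. All ∆DMR1-U2 libraries lay below all wild-type libraries, and the wild-type libraries were close together. The mean log2 ratio was 0.53 lower in ∆DMR1-U2, a difference of -0.53 that is 0.690 of the wild-type ratio (exact two-sided permutation p = 0.0286 over 8 libraries, the smallest this design can give; 0.114 adjusted over the 8 pairs). It was -0.37 without ∆DMR1-U2 library 1B and -0.30 without both 1A and 1B.

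The ratio of Cacng1 to Cacna1s was 0.418, 0.442, 0.386 and 0.414 in ∆DMR1-U2 and 0.336, 0.386, 0.325 and 0.362 in wild-type. The groups met at ∆DMR1-U2 library 2 and wild-type library 1B, which differed only past the third digit. The mean log2 ratio was 0.24 higher in ∆DMR1-U2 (exact two-sided permutation p = 0.0286, 0.114 adjusted over the 8 pairs), and 0.20 to 0.28 when any 1 library was left out. Neither pair passed after adjustment.

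The other 6 pairs overlapped between the genotypes. The ratio of Cacna1s to Ryr1 was 0.281 ± 0.0397 in ∆DMR1-U2 and 0.283 ± 0.0242 in wild-type, a log2 difference of -0.02 (exact permutation p = 0.886). That of Stac3 to Cacna1s was 0.148 ± 0.0233 in ∆DMR1-U2 and 0.152 ± 0.0175 in wild-type, and that of Trdn to Ryr1 was 0.286 ± 0.0527 in ∆DMR1-U2 and 0.276 ± 0.0542 in wild-type. The log2 difference of Cacnb1 over Cacna1s was -0.14, with values of -0.24 to -0.046 when any 1 library was left out and 0.013 without both ∆DMR1-U2 libraries 1A and 1B. That of Cacna2d1 over Cacna1s was 0.12, with 0.060 to 0.20 when any 1 library was left out. Ryr3 over Ryr1 was 0.183 ± 0.0228 in ∆DMR1-U2 and 0.161 ± 0.0389 in wild-type (exact permutation p = 0.343). With any 1 library left out, the log2 differences were -0.099 to 0.057 for Cacna1s over Ryr1, -0.13 to 0.056 for Stac3 over Cacna1s, -0.039 to 0.18 for Trdn over Ryr1 and 0.070 to 0.35 for Ryr3 over Ryr1, so the sign of the first 3 rests on single libraries. These p-values do not show that the ratios were equal.

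**Figure D4:**
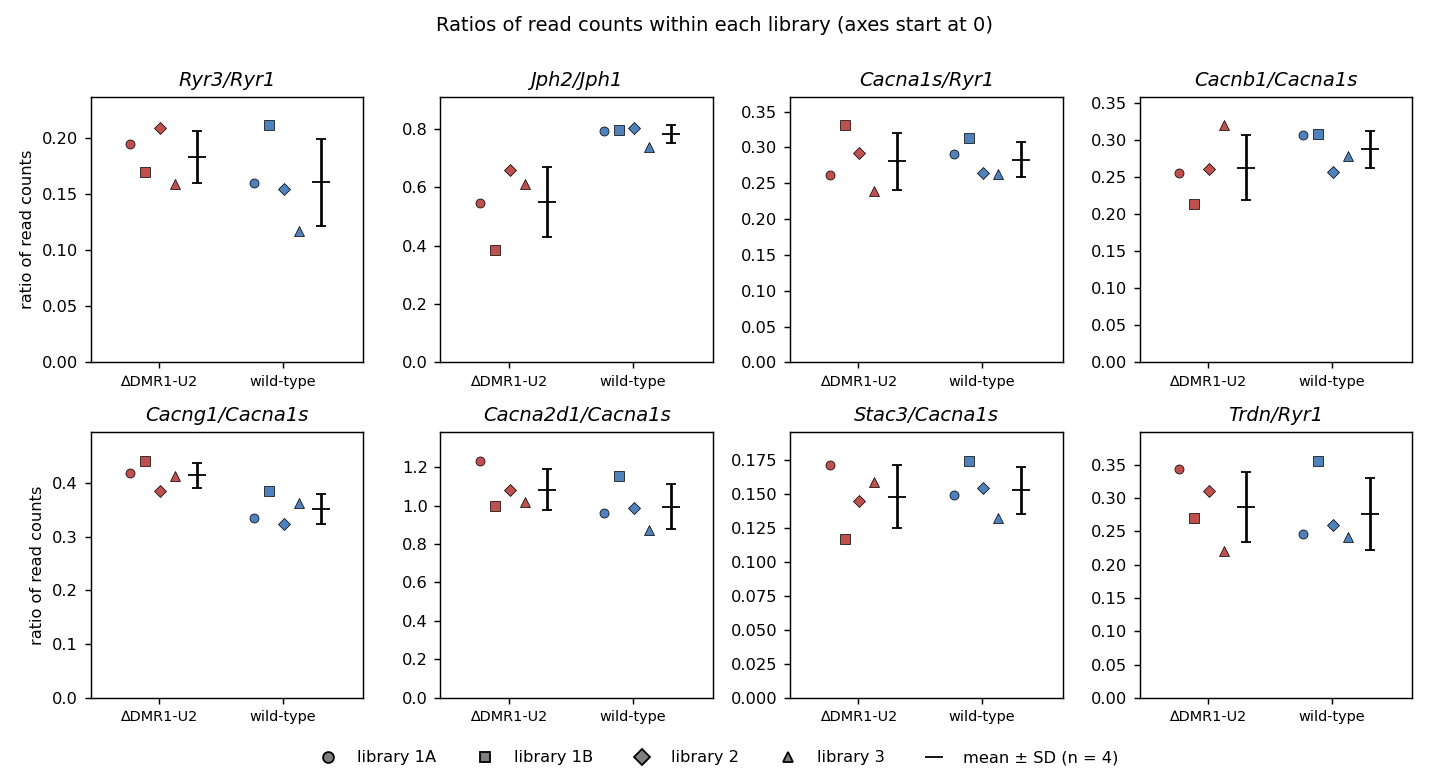
Ratio of the read counts of 2 triad genes within each library (vertical axes, starting at 0) for 8 pairs, in 4 ∆DMR1-U2 and 4 wild-type libraries, with the mean ± SD. In Jph2/Jph1 every ∆DMR1-U2 point lies below every wild-type point, in Cacng1/Cacna1s every ∆DMR1-U2 point lies at or above the highest wild-type point, and the other pairs overlap.

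For the sequence upstream of these genes, RefSeq promoter windows on GRCm38.p6 were matched by symbol, giving 7 windows for 5 of the 10 members. Those of Cacna1s, Cacnb1, Jph2 and Ryr1 are shown because these are the voltage sensor, the 2 members furthest below wild-type, and the channel the sensor acts on. Each is cut where an annotated exon of the gene begins, and capitals mark CANNTG, the E-box core that myogenic bHLH factors are known to bind. The windows are chr1:136052561-136052749 (plus strand), chr11:98018373-98018622 (minus strand, before the downstream start of the gene), chr2:163397994-163398243 (minus strand) and chr7:29125180-29125401 (minus strand).
Cacna1s: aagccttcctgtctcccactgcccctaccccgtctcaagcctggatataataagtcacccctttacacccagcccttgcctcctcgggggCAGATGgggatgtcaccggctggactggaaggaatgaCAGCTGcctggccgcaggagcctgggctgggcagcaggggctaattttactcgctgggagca
Cacnb1: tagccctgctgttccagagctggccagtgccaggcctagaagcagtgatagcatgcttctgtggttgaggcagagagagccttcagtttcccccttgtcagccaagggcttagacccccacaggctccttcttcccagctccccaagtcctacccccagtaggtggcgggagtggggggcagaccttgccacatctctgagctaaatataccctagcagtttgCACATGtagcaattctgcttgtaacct
Jph2: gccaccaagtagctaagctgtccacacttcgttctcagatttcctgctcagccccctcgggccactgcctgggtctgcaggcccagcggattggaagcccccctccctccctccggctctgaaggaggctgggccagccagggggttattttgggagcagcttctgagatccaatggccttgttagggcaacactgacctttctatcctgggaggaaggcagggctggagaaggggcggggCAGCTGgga
Ryr1: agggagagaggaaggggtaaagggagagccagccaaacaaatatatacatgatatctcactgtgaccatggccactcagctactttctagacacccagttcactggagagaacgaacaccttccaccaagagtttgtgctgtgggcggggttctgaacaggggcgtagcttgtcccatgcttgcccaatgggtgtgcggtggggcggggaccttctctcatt

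Letters were searched on both strands in the 250 bases before each start. CAGCTG, a form of CANNTG and so counted under both, stood 123 bases before the RefSeq start of Cacna1s. It also stood 9 bases before the outer of 2 overlapping Jph2 starts, and in 13.0% of all 32851 promoter windows. The full Cacna1s window ends at 136052810, past the printed stretch and inside the annotated gene. CANNTG was in 4 of the 7 member windows and in 66.2% of all windows. GGGCGG, the GC box core, was in 6 of the 7 and in 32.7% of all, with 6 matches before Cacna2d1, whose window was 82.4% G and C beside a median of 52.4% over all windows. The printed Cacnb1 window, before the downstream start, had 1 CANNTG and 0 GGGCGG. Its other window, before the upstream start and not printed, had 0 CANNTG and 5 GGGCGG. MEF2 and CArG motifs were in 0 of the 7 member windows, and in 2.92% and 1.47% of all. A match describes these letters and is not a measured binding site.

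The members followed each other over the 8 libraries to different degrees. Pearson's r of a member with the mean z-score of the other members was 0.81 to 0.92 for Jph2, Cacnb1, Ryr1, Stac3, Cacna1s and Cacna2d1, 0.65 for Trdn, 0.56 for Ryr3, 0.42 for Cacng1 and -0.25 for Jph1, as a description over libraries that all members share. Mean z-scores of the 10 members (each gene's log2 CPM scaled over the 8 libraries) were -0.43, -1.43, 0.13 and 0.12 in ∆DMR1-U2 libraries 1A, 1B, 2 and 3 and 0.86, -0.18, 0.21 and 0.73 in the wild-type libraries. Wild-type libraries 1A and 3 each had the highest level of 4 members. Jph1 broke the pattern, with a z-score of 0.98 in ∆DMR1-U2 library 1B, its highest library, and -1.96 in wild-type library 1B. Cacng1 was lowest in ∆DMR1-U2 library 1A and highest in wild-type library 3.

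The tested genes whose log2 CPM followed the mean z-score of the members most closely, of 15231 other genes, were Fam53b, Ksr1, Dgkz, Tnk2 and Pitx3. Pearson's r was 0.97 to 0.98 over the 8 libraries and Spearman's rho 0.95 to 1, and r was 0.93 to 0.96 without the 2 libraries farthest from the median, ∆DMR1-U2 1B and wild-type 1A. They are the highest of all genes ranked, so no p is given. Their log2 fold changes were -0.43 to -0.13, and none was called (adjusted p of 0.191 to 0.320, edgeR).

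**Figure D5:**
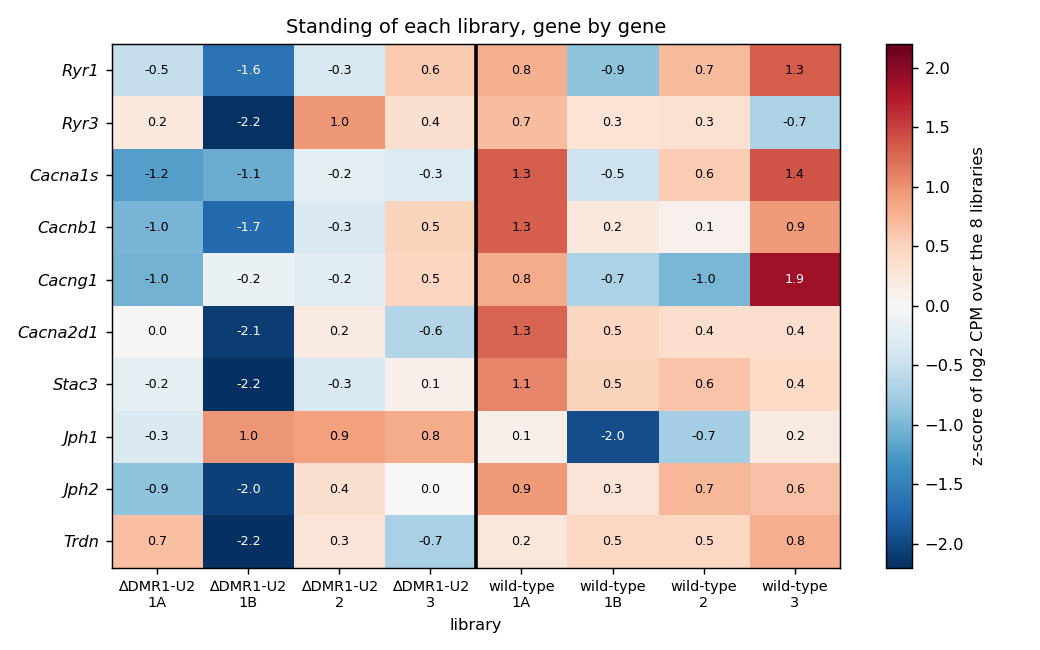
Z-score of log2 CPM over the 8 libraries (colour, with the value printed) for the 10 triad genes (rows) in the 4 ∆DMR1-U2 libraries, left of the line, and the 4 wild-type libraries, right of it. ∆DMR1-U2 library 1B is at -1.62 or lower in 7 genes, -1.10 in Cacna1s, -0.15 in Cacng1 and 0.98 in Jph1.

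As a measure of muscle content, 8 skeletal muscle fibre markers, such as Acta1 and Ckm, were set beside the members. They had a summed level of 65860 to 72109 CPM in ∆DMR1-U2 and 70499 to 85897 CPM in wild-type, a log2 difference of -0.17 (exact permutation p = 0.0571) between groups that overlapped. All 8 had negative log2 fold changes with a median of -0.20, the smallest in size being -0.020 for Des, and 0 were called (edgeR). Against the wild-type mean on the log2 scale, the fibre sum stood at -0.24, -0.19, -0.11 and -0.16 in ∆DMR1-U2 libraries 1A, 1B, 2 and 3. The median triad gene stood at -0.19, -0.55, -0.08 and -0.10 in them. In wild-type libraries 1A, 1B, 2 and 3 the fibre sum stood at 0.15, -0.14, -0.10 and 0.09. The median triad gene stood at 0.09, -0.11, -0.01 and 0.08 there. Both lay on the same side of the wild-type mean in each library, and they were furthest apart in ∆DMR1-U2 library 1B. Taken relative to this sum, the median difference of the triad genes was -0.078 on the log2 scale, those of Cacnb1, Jph2, Stac3 and Cacna1s were -0.26, -0.24, -0.17 and -0.12 (exact permutation p of 0.0857 to 0.286), and Ryr3, Cacng1 and Cacna2d1 turned to 0.11, 0.12 and 0.0034. Jph1 was 0.30 higher relative to the sum (exact permutation p = 0.0286, unadjusted over the 10 genes). What the fibre content adds to the values of single members was not tested.

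Of other cells that use members or paralogs, heart muscle markers summed to 320 to 401 CPM in ∆DMR1-U2 and 336 to 449 CPM in wild-type. Most of that sum was Myl4, at 285 to 362 CPM in ∆DMR1-U2 and 306 to 415 CPM in wild-type, and Myh6 had 28.3 to 42.8 CPM in ∆DMR1-U2 and 28.3 to 35.1 CPM in wild-type. Tnni3 had 15 to 26 counts per library, Nppa 4 to 21 and Myl7 0 to 5. The heart sum is thus mainly the level of Myl4, and which cells its reads came from was not tested. Smooth muscle markers summed to 307 to 408 CPM in ∆DMR1-U2 and 399 to 459 CPM in wild-type. The 5 smooth muscle markers were split, with log2 fold changes of -0.37 for Acta2 and -0.42 for Smtn, and of 0.33 for Myh11, 0.17 for Lmod1 and 0.025 for Cnn1. Neuron markers summed to 4.48 to 6.28 CPM in ∆DMR1-U2 and 3.44 to 4.79 CPM in wild-type. White adipocyte markers were at 139 CPM in ∆DMR1-U2 library 1B, the library with the lowest triad levels, at 29.4 to 39.3 CPM in the other ∆DMR1-U2 libraries and at 24.4 to 57.0 CPM in wild-type. Schwann cell markers were at 70.9 to 114 CPM in ∆DMR1-U2 and 30.8 to 64.3 CPM in wild-type, without overlap. Muscle progenitor, fibroblast and endothelium markers overlapped between the groups, at 205 to 237, 4559 to 6719 and 379 to 404 CPM in ∆DMR1-U2 and 203 to 262, 5845 to 10057 and 401 to 435 CPM in wild-type. None of the genes on these lists was called (edgeR); their part in the triad values was not tested.

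Outside the 10 members, 21 other genes of the triad and of calcium release had 0 called by edgeR and 16 negative values. Their median log2 fold change was -0.15, 9 of 21 had an unadjusted p under 0.05 (21.3% of all genes), and DESeq2 called 7 of 21 (6.15% of all genes). The groups did not overlap in 5 of 21 (12.8% of all genes). Casq1, the main calsequestrin of fast fibres, had 776, 556, 907 and 625 CPM in ∆DMR1-U2 and 1162, 1065, 1007 and 1048 CPM in wild-type. All ∆DMR1-U2 libraries lay below all wild-type libraries, and the log2 fold change, -0.58, was larger in size than that of any member (SE 0.13; adjusted p = 0.0619, edgeR; 0.00161, DESeq2). The edgeR call of Casq1 was made without the filter on low counts (adjusted p = 0.0480) and without ∆DMR1-U2 library 2 (adjusted p = 0.0198). Homer2, of a scaffold family that binds ryanodine and IP3 receptors, had 17.6, 11.6, 19.6 and 13.7 CPM in ∆DMR1-U2 and 24.1, 25.1, 22.6 and 22.2 CPM in wild-type, a log2 fold change of -0.59 (adjusted p = 0.0680, edgeR; 0.00479, DESeq2). Without ∆DMR1-U2 library 2 edgeR called it too (adjusted p = 0.0249). Without ∆DMR1-U2 library 1B the log2 fold changes were -0.48 for Casq1 and -0.47 for Homer2.

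Itpr3, an IP3 receptor and so a release channel of another kind, lay on the other side, with 37.4, 43.9, 36.9 and 50.5 CPM in ∆DMR1-U2 and 28.9, 27.5, 35.6 and 29.6 CPM in wild-type. Every ∆DMR1-U2 library was above every wild-type library, and the log2 fold change was 0.47 (SE 0.12; adjusted p = 0.0720, edgeR; 0.00871, DESeq2), with an edgeR adjusted p of 0.0433 without ∆DMR1-U2 library 2. Among 10 genes of transverse tubule formation, 0 were called by edgeR or DESeq2 (1.13% and 6.15% of all genes). Of these 10, 1 had an unadjusted p under 0.05 (21.3% of all genes), and the median log2 fold change was -0.13. Those with the smallest p were Bin1, the membrane-bending amphiphysin of the tubules, at -0.27, Dysf, dysferlin of membrane repair, at -0.21, and Trim72, also of membrane repair, at -0.20 (adjusted p of 0.158 to 0.285, edgeR). Without both ∆DMR1-U2 libraries 1A and 1B the estimates of Bin1, Dysf and Trim72 were -0.14, -0.050 and -0.031.

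The 17 listed paralogs together gave 158 to 232 CPM in ∆DMR1-U2 and 187 to 202 CPM in wild-type, and Cacna1f and Stac2 stayed below the filter. Of the 15 paralogs tested, 0 were called by edgeR (1.13% of all genes). An unadjusted p under 0.05 was found in 5 of the 15 (21.3% of all genes), and the median log2 fold change was 0.0054. DESeq2 called 3 of the 17 listed, Cacna2d2, Stac and Stac2 (6.15% of all genes), and Stac2 is not among the 15 that edgeR tested. Cacna2d2, another alpha-2-delta subunit, had 2.96, 2.13, 2.98 and 2.12 CPM in ∆DMR1-U2 and 4.35, 4.13, 4.11 and 3.86 CPM in wild-type, on 40 to 110 counts per library, a log2 fold change of -0.69 (adjusted p = 0.0575, edgeR; 0.0134, DESeq2). Stac, a relative of Stac3, had 3.88, 3.68, 3.58 and 3.60 CPM in ∆DMR1-U2 and 1.75, 2.30, 2.62 and 2.72 CPM in wild-type, a log2 fold change of 0.63 opposite in sign to that of Stac3 (adjusted p = 0.0683, edgeR; 0.0322, DESeq2). Stac2, the other relative, had the sign of Stac3 on very few reads, with 9, 8, 3 and 9 counts in ∆DMR1-U2 and 8, 25, 31 and 34 counts in wild-type, and a DESeq2 log2 fold change of -1.44 (adjusted p = 0.0355). Cacnb3 was at -0.32 (adjusted p = 0.104, edgeR). Cacna2d2, Stac and Cacnb3 each had groups that did not overlap, 3 of the 15 tested, beside 12.8% of all genes. They were named for the smallest p of the list, so the gap between groups adds nothing to their p.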

How the data were processed

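Paired-end reads came from newborn muscle RNA after removal of ribosomal RNA, per the labels' protocols. Per the submitters' processing notes, reads were handled with DESeq2 1.4.5, HTSeq 0.5.4p3, TopHat2 2.0.9, Bowtie2 2.1.0 and FastQC 0.10.1 on mm10. The sources used here give no settings, annotation or strand. Per the file headers, the deposited table holds raw read counts per gene and library, the authors' mean normalised counts (a signal on the scale of counts over size factors), their fold ratio and log2 ratio of wild-type over ∆DMR1-U2, and their p-values and adjusted p-values. All signs here are ∆DMR1-U2 over wild-type.

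Counts were tested with edgeR 4.0.16 (R 4.3.3), using filterByExpr at a minimum count of 10 (15241 genes), TMM scaling, the quasi-likelihood test and Benjamini-Hochberg adjustment over all genes tested, threshold 0.05. The biological coefficient of variation was 12.3%. The code was tested on simulated data. No 2 libraries agreed within sampling noise. Alternatives were DESeq2 1.42.0, its size factors, no filter, the replicate name as a block, and left-out libraries; scaling to fibre markers was added after seeing the data. Members, gene lists, pairs and markers were chosen with earlier results of these data known. Named were all members, per companion list the called genes or else the 3 with the smallest p, and the 5 genes closest in pattern; other genes were chosen after their values were seen. Positions, exon lengths and overlaps come from GENCODE vM21 (mm10). CPM are counts scaled to the TMM library size.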

Additional observations from a re-analysis of the deposited data

Results flagged for a closer look

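The levels of the 10 triad genes were checked in each group of 4 libraries for a library far from the rest, by the gap to its neighbour over the range of the group. Of 20 such groups, 2 passed Dixon's 95% critical value, and chance flags about 1 in 20. Jph1 in ∆DMR1-U2 library 1A lay below the other 3 ∆DMR1-U2 libraries, with a gap of 0.881 of the range (0.12 on the log2 scale, while the other 3 were within 0.02 of each other). Cacna2d1 in wild-type library 1A lay above the other 3 wild-type libraries, with a gap of 0.900 of the range (0.11 on the log2 scale, the other 3 within 0.01). Both gaps are small in size and pass because the other 3 libraries were so close. ∆DMR1-U2 library 1B, although lowest for 7 members, did not pass for any of them.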

How the results depend on the processing

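The number of triad genes called stayed at 0 higher and 0 lower under the alternatives run, except that DESeq2 called 1 lower, Cacna1s. Over all genes the count of 172 became 930 with DESeq2, 13 with the replicate block, 16 without ∆DMR1-U2 libraries 1A and 1B, and 7 to 631 when 1 library was left out. Of 130 member fold changes refitted with edgeR or DESeq2, 126 kept their sign and their side of the threshold. With 1 library left out, Ryr3 ranged from -0.13 to 0.076, positive without ∆DMR1-U2 library 1B, and Cacng1 from -0.10 to 0.0052, positive without wild-type library 3. Ryr3 was 0.10 without 1A and 1B, and 0.11 relative to fibre markers. Relative to fibre markers Cacng1 was 0.12 and Cacna2d1 0.0034. The member median of -0.24 was -0.078 relative to fibre markers, and the log2 ratio of Jph2 to Jph1 was -0.30 without 1A and 1B. The causes of these shifts were not tested. In the replicate block, libraries of the same name were paired. Same-named libraries deviated from their group means with correlations of -0.21 to -0.07 over genes. What the shared names stand for is not stated, and these correlations cannot decide it. The member median was -0.25 in the paired fit, and 0 members were called. For the ratios the paired exact sign-flip permutation test cannot go below p = 0.125.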
